A study of Mus musculus with 6 samples.

Results

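The leukotriene genes examined here were 10 genes chosen by name along the path from arachidonate release to the leukotriene receptors, out of 23420 genes in the table, and all 10 were found. They are Pla2g4a, Alox5, Alox5ap, Ltc4s, Lta4h, Abcc1, Alox12, Alox15, Cysltr1 and Cysltr2. They were measured in 6 RNA-sequencing libraries that form 1 group, each labelled as a separate mouse replicate, from the ileum of Gfi1b-eGFP mice on a C57BL/6J background. By the study's methods, 1 allele of the transcription factor gene Gfi1b carries green fluorescent protein (GFP) in these mice, so every library shares it. Sorting kept live cells that carried GFP and EpCam, an epithelial surface protein, and lacked CD45, a surface protein of leukocytes. There was no control group, no treatment and no other cell type, so genes were compared with one another within each library.

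Leukotrienes are lipid mediators made from arachidonate, a fatty acid held in membrane phospholipids. Cytosolic phospholipase A2 (Pla2g4a) releases arachidonate, and 5-lipoxygenase (Alox5), which receives it from the membrane protein FLAP (Alox5ap), oxidises it to the unstable epoxide LTA4. LTC4 synthase (Ltc4s) joins LTA4 to glutathione and so opens the cysteinyl leukotriene branch, whereas LTA4 hydrolase (Lta4h) makes LTB4. The transporter MRP1 (Abcc1) carries LTC4 out of the cell, Cysltr1 and Cysltr2 encode the classical receptors of cysteinyl leukotrienes, and Alox12 and Alox15 encode lipoxygenases that oxidise arachidonate at other positions. Intestinal tuft cells are known as a source of cysteinyl leukotrienes in the response to helminths.

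The libraries of sorted tuft cells held abundant transcripts of the genes for making LTC4, while the classical receptor genes Cysltr1 and Cysltr2 were listed at 0. The share of these transcripts that came from tuft cells was not measured. Alox5ap, Ltc4s and Alox5 were the 3 most abundant members, at 1030.0 ± 369.6, 419 ± 126 and 264 ± 70.0 TPM (SD, n = 6 each). Pla2g4a and Lta4h were lower, Abcc1 and Alox12 were low, and Alox15, Cysltr1 and Cysltr2 were listed at 0 in all 6 libraries. TPM gives a gene's share of all transcripts, corrected for transcript length and scaled to a fixed total, so levels of different genes can be set side by side within a library if reads came from whole transcripts. The methods describe such libraries (SMART-Seq2), but the labels also list a 3' polyA and a droplet preparation, for which this correction would raise short transcripts, so the comparisons were also made on TPM multiplied by transcript length. Of the 10 members, 6 were listed above 0 in every library, against 47.2% of all genes in the table, and 5 had a mean of at least 10 TPM, against 29.8% of all genes. A mean of at least 100 TPM, which 4.5% of all genes reached, was reached by Alox5ap, Ltc4s and Alox5.

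**Figure D1:**
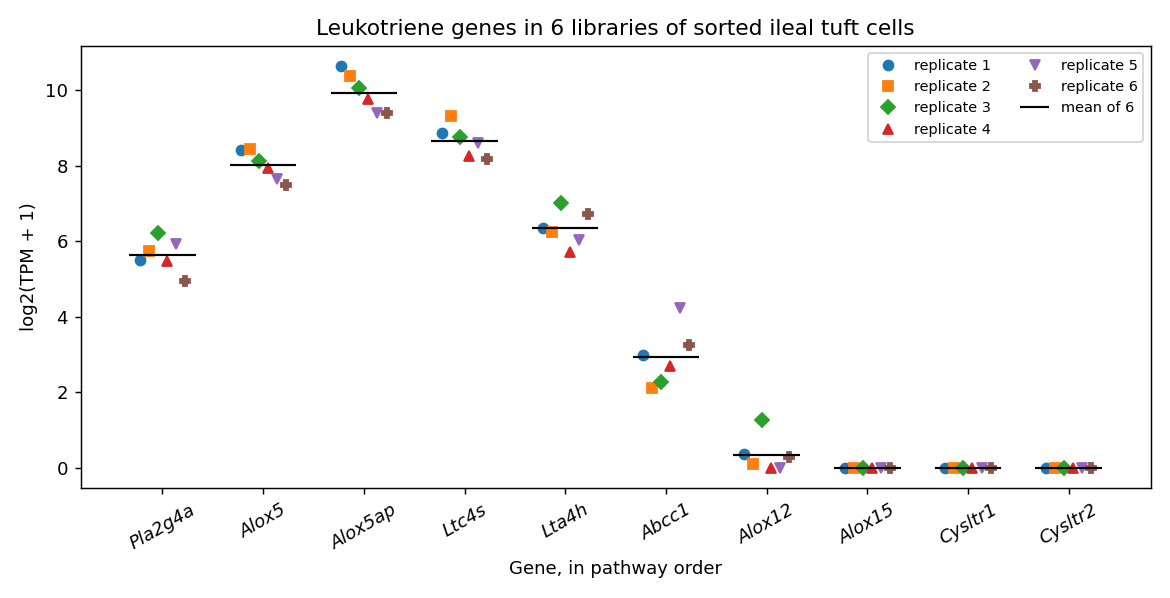
Level of each leukotriene gene as log2(TPM + 1), with 1 point for each of the 6 libraries and a bar for the mean of 6. Alox5ap, Ltc4s and Alox5 stand highest in all libraries, Abcc1 and Alox12 stand low, and Alox15, Cysltr1 and Cysltr2 sit at 0 in every library.

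At the entry of the pathway, Pla2g4a had 44.34, 52.35, 73.91, 43.64, 59.55 and 30.07 TPM in replicates 1 to 6. Replicate 3 was highest and replicate 6 lowest, and among genes above 0 in the same library Pla2g4a ranked between percentiles 76.8 and 88.0. The fixed list held 20 other phospholipase A2 genes, of which 5 averaged 10 TPM or more, against 29.8% of all genes. They were Pla2g16 (28.7 ± 2.15 TPM), Pla2g6 (18.9 ± 5.72), Pla2g12b (15.2 ± 4.53), Pla2g2a (12.8 ± 6.12) and Pla2g12a (12.6 ± 6.09; SD, n = 6 each). The most abundant of these in any library was Pla2g16 or, in replicate 6, Pla2g6, at 25.9 to 31.8 TPM. Pla2g4a exceeded it in 6 of 6 libraries, by 0.75 ± 0.38 on the log2(TPM + 1) scale (SD, n = 6; two-sided exact permutation p = 0.03125, adjusted p = 0.0402 over 9 comparisons). The margin was 1.30 in replicate 3 and 0.16 in replicate 6, so the order of these phospholipases was close in replicate 6. Without the length correction Pla2g4a was higher in 5 of 6 libraries, by 0.46 ± 0.38 (SD, n = 6; exact permutation p = 0.0625, adjusted p = 0.0703). The test flips the signs of the library differences, and a p of 0.03125 is the smallest that 6 libraries allow, and it rests on the direction being the same in all of them.

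Alox5, the gene of 5-lipoxygenase, had 340.70, 345.70, 276.84, 245.31, 197.91 and 180.04 TPM in replicates 1 to 6. Replicates 1 and 2 were highest and replicate 6 lowest, a 1.92-fold range, and Alox5 lay at percentile 95.9 or above in every library. It was the one abundant lipoxygenase in the table. Alox12, the platelet-type 12-lipoxygenase gene, was listed at 0.29, 0.08, 1.42, 0, 0 and 0.23 TPM, and Alox15, which encodes the leukocyte-type 12/15-lipoxygenase, was listed at 0 throughout. Alox5 exceeded Alox12 in 6 of 6 libraries, by 7.67 ± 0.56 on the log2(TPM + 1) scale, and exceeded Alox15 in 6 of 6, by 8.01 ± 0.39 (SD, n = 6; exact permutation p = 0.03125, adjusted p = 0.0402 for each). With Alox15 at 0, the second difference is the level of Alox5 itself on this scale, and no ratio was formed. Any level of Alox5 above 0 in every library would give the same direction and p. That p-value therefore adds nothing to the listed levels. Among the other lipoxygenase genes, Alox8 was above 0 in all libraries at 1.28 to 3.45 TPM, Alox12b had at most 1.63 TPM, and Alox12e and Aloxe3 were at 0 in all 6.

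Alox5ap, the gene of FLAP, had 1590.28, 1318.42, 1066.16, 860.77, 676.22 and 668.23 TPM in replicates 1 to 6. It was highest in replicate 1 and lowest in replicate 6, a 2.38-fold range, and ranked at percentile 98.7 or above in every library. Alox5ap exceeded Alox5 in 6 of 6 libraries, by 1.92 ± 0.16 on the log2(TPM + 1) scale (SD, n = 6; exact permutation p = 0.03125, adjusted p = 0.0402). In TPM it was at 3.42 to 4.67 times the level of Alox5 in the same library. Without the length correction it was at 1.52 to 2.07 times that level. The difference was then 0.76 ± 0.16, in 6 of 6 libraries, and did not pass the adjusted threshold (SD, n = 6; exact permutation p = 0.03125, adjusted p = 0.0563). Of the other genes listed as partners or activating kinases of 5-lipoxygenase, Cotl1, whose product binds the enzyme, had 35.9 ± 10.9 TPM and the kinase genes Mapk3 and Mapk14 had 163 ± 39.0 and 17.1 ± 6.84 TPM (SD, n = 6 each). All 6 genes of that list, Alox5ap included, were above 0 in every library, against 47.2% of all genes.

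The epoxide LTA4 can go to LTC4 or to LTB4, and the gene of the LTC4 branch was the more abundant. Ltc4s had 466.92, 635.29, 430.39, 306.76, 389.51 and 287.83 TPM in replicates 1 to 6, and Lta4h had 81.13, 74.52, 128.95, 51.84, 64.79 and 104.67 TPM. Ltc4s was highest in replicate 2 and lowest in replicate 6, while Lta4h was highest in replicate 3 and second highest in replicate 6, and the ranges of the 2 genes did not overlap. Ltc4s exceeded Lta4h in 6 of 6 libraries, by 2.31 ± 0.60 on the log2(TPM + 1) scale (SD, n = 6; exact permutation p = 0.03125, adjusted p = 0.0402), or 2.75- to 8.53-fold in TPM. The smallest ratios were in replicates 3 and 6, where Lta4h was highest. Without the length correction Ltc4s was higher in 5 of 6 libraries, by 0.82 ± 0.61 (SD, n = 6), and no longer passed the test (exact permutation p = 0.0625, adjusted p = 0.0703).

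Ltc4s was not the most abundant gene of its own enzyme family. Mgst2 and Mgst3 encode related microsomal glutathione transferases that can also form LTC4 in vitro. Mgst3 had 2129 ± 430 TPM and Mgst2 had 122 ± 23.1 TPM (SD, n = 6 each). Against Mgst3, the higher of the 2 in every library, Ltc4s was lower in 6 of 6, with a difference of -2.37 ± 0.26 on the log2(TPM + 1) scale (SD, n = 6). The comparison gene was taken as the more abundant one in these same values, which favours this direction, so the difference is given as a description. Mgst3 was 3.94 to 6.43 times as abundant as Ltc4s in the same library. Mgst1, a family member known for detoxification, had 162 ± 50.8 TPM (SD, n = 6), and Ptges, the gene of an inducible prostaglandin E synthase, was listed at no more than 0.08 TPM.

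Abcc1, the exporter gene of the pathway, had 6.93, 3.35, 3.84, 5.51, 17.87 and 8.57 TPM in replicates 1 to 6. Replicate 5 stood well above the others, and the mean was 7.68 TPM with it and 5.64 TPM without it. A library that stands this far apart by Dixon's ratio was found for 2 of the 7 members with any value above 0, Abcc1 and Alox12, against 7.01% of genes averaging 10 TPM or more and 20.7% of genes above 0 in any library. Abcc3, a related organic anion transporter, was the most abundant of the 4 exporter genes listed, at 77.5 ± 14.3 TPM (SD, n = 6). Abcc1 was below Abcc3 in 6 of 6 libraries, with a difference of -3.34 ± 1.00 on the log2(TPM + 1) scale (SD, n = 6). Abcc3 was likewise taken for its abundance in these values, and the difference is a description. It was -1.61 in replicate 5 and lay between -4.28 and -2.78 in the other libraries.

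**Figure D2:**
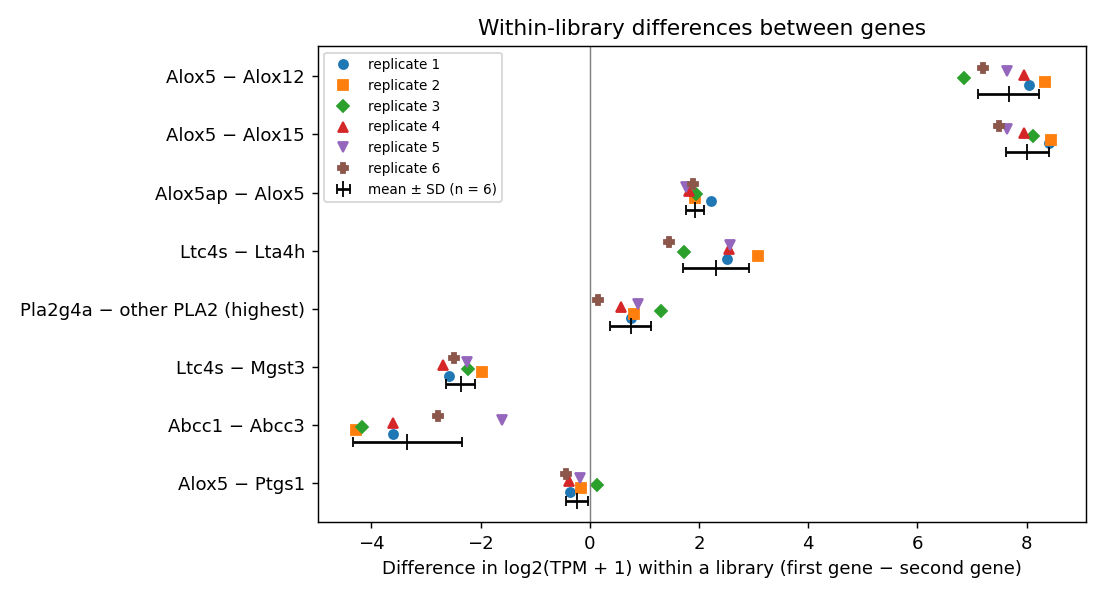
Difference in log2(TPM + 1) between 2 genes of the same library for 8 comparisons, with 1 point per library and the mean ± SD of 6 below the points. The differences lie on 1 side of 0 in all 6 libraries for 7 comparisons, and for Alox5 against Ptgs1 the points lie on both sides.

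Outside the cell, LTC4 is trimmed to LTD4 and LTE4 by peptidases. Of the 7 peptidase genes listed, Dpep1, whose product converts LTD4 to LTE4, had 47.4 ± 17.6 TPM, Ggt1 had 18.3 ± 9.88 TPM and Ggt6 had 10.5 ± 5.56 TPM (SD, n = 6 each). Ggt5, Ggt7 and Dpep3 were at 0 in all libraries. Enterocytes also express Dpep1 and Ggt1, enterocyte markers summed to 7700 to 16261 TPM, and their part in these values was not tested.

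The receptor genes were absent from the listed transcripts or nearly so. Cysltr1 and Cysltr2 were at 0 in 6 of 6 libraries each, as were 32.9% of all genes in the table, and the planned comparison of the 2 genes gives no information. Of the 7 genes listed as receptors of leukotrienes, none was above 0 in every library, against 47.2% of all genes. None had a mean of at least 10 TPM, against 29.8% of all genes. Ltb4r1 and Ltb4r2, the LTB4 receptor genes, had at most 2.32 and 2.89 TPM, Gpr17 at most 2.82 TPM and Oxgr1, an LTE4 receptor gene, at most 0.05 TPM. TPM keeps no sequencing depth and an exact 0 can also be a failed estimate, so no detection limit can be given for these receptors.

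Ranked by mean TPM, the members fell in the order Alox5ap, Ltc4s, Alox5, Lta4h, Pla2g4a, Abcc1, Alox12, with the 3 genes at 0 last. For 6 of the 9 pairs of neighbours in this order, the gene with the higher mean was higher in 6 of 6 libraries (exact permutation p = 0.03125, adjusted p = 0.0469 over 9 pairs). These were all pairs down to Abcc1 and Alox12. The closest were Ltc4s with Alox5, at a difference of 0.66 ± 0.25, and Lta4h with Pla2g4a, at 0.71 ± 0.59 on the log2(TPM + 1) scale (SD, n = 6 each), whose ranges overlap between libraries although the order holds within each. Without the length correction 4 of these 6 pairs kept their order in every library. Ltc4s, whose transcript is short, then lay below Alox5, by 1.32 ± 0.25 on the log2 scale in 6 of 6 libraries, and Lta4h exceeded Pla2g4a in 4 of 6 (SD, n = 6). Alox12 was not separated from Alox15 (exact permutation p = 0.125, adjusted p = 0.161). The order was read from the same values, so its direction is a description.

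Arachidonate also feeds prostaglandin synthesis through cyclooxygenase. Ptgs1, the gene of cyclooxygenase 1, had 312 ± 87.0 TPM and Ptgs2 had 11.5 ± 4.69 TPM (SD, n = 6 each). Alox5 was lower than Ptgs1 in 5 of 6 libraries and higher in replicate 3, with a mean difference of -0.23 ± 0.21 on the log2(TPM + 1) scale, which did not pass the test (SD, n = 6; exact permutation p = 0.0625, adjusted p = 0.0703). The entry genes of both branches thus stood within 0.43 of each other on the log2 scale in every library. In the same list, Hpgds, the gene of the prostaglandin D synthase of haematopoietic type, had 61.3 ± 8.27 TPM (SD, n = 6).

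Of the 67 other genes of the pathway list, 36 were above 0 in every library, against 47.2% of all genes in the table. At 0 in all libraries were 11, against 32.9% of all genes, and 28 had a mean of at least 10 TPM, against 29.8%. The median of their means was 3.44 TPM, against 1.24 TPM over all genes and 29.2 TPM over the 10 members. In the group that loads arachidonate into phospholipid, Lpcat3 was the most abundant at 101 ± 17.6 TPM, followed by Acsl5 at 65.5 ± 13.0 TPM, and Acsl4, whose product prefers arachidonate, had 13.3 ± 7.13 TPM (SD, n = 6 each). Lpcat4 had 48.5 ± 9.44, Mboat7 17.2 ± 7.82 and Acsl1 10.3 ± 4.50 TPM (SD, n = 6 each). In the group of breakdown enzymes, Cyp4f14, an LTB4 hydroxylase gene, had 147 ± 38.2 TPM, and its relatives Cyp4f13 and Cyp4f16 had 25.2 ± 12.1 and 19.5 ± 6.50 TPM (SD, n = 6 each).

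The members did not vary together as 1 block. Alox5, Alox5ap and Ltc4s were highest in replicate 1 or 2 and lowest in replicate 6, Pla2g4a and Lta4h were highest in replicate 3, and Abcc1 was highest in replicate 5. The ratio of Alox5ap to Alox5 kept within 1.37-fold over the libraries, with an SD of 0.16 for the log2 difference, although each gene ranged more widely. Of 6985 other genes averaging 10 TPM or more, 1.63% had a smaller SD of their log2 difference from Alox5 than Alox5ap did. The same share was 7.92% for Ltc4s, 44.2% for Pla2g4a and 67.3% for Lta4h, so Lta4h followed Alox5 less closely than most of these genes. Outside the members it was 1.42% for Mgst3, closer than Alox5ap, and 4.24% for Ptgs1, closer than Ltc4s. Following Alox5 closely was therefore not particular to the members. The ratio of Ltc4s to Lta4h ranged 3.1-fold. These ratios are formed within a library and do not depend on the scaling between libraries. They are a description of 6 libraries of 1 group, and genes of a library are not independent of one another.

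A list of 12 tuft cell markers that holds no member, with Dclk1, Trpm5, Gfi1b, Pou2f3, Il25 and Avil among them, was used to ask which members varied with tuft markers. All 12 were above 0 in every library, with 6688 to 11259 TPM in sum. Gfi1b carried the reporter used for sorting, so its presence is no independent check. When the median log2 level of this list was subtracted in each library, the SD over libraries fell from 0.39 to 0.21 for Alox5, from 0.51 to 0.25 for Alox5ap and from 0.42 to 0.32 for Ltc4s. It rose from 0.43 to 0.61 for Pla2g4a, from 0.47 to 0.73 for Lta4h and from 0.77 to 1.02 for Abcc1. The SD fell in this way for 30.1% of 6974 genes averaging 10 TPM or more outside the list. The fall was smaller after median-of-ratios rescaling between libraries. The SD of Alox5 then went from 0.28 to 0.21, that of Alox5ap from 0.41 to 0.25 and that of Ltc4s only from 0.325 to 0.324, with a fall in 23.7% of genes. For comparison, Ptgs1 went from 0.39 to 0.12 and Mgst3 from 0.28 to 0.18 as deposited. In sorted bulk samples, fewer tuft cells and less RNA of a gene per tuft cell cannot be told apart.

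**Figure D3:**
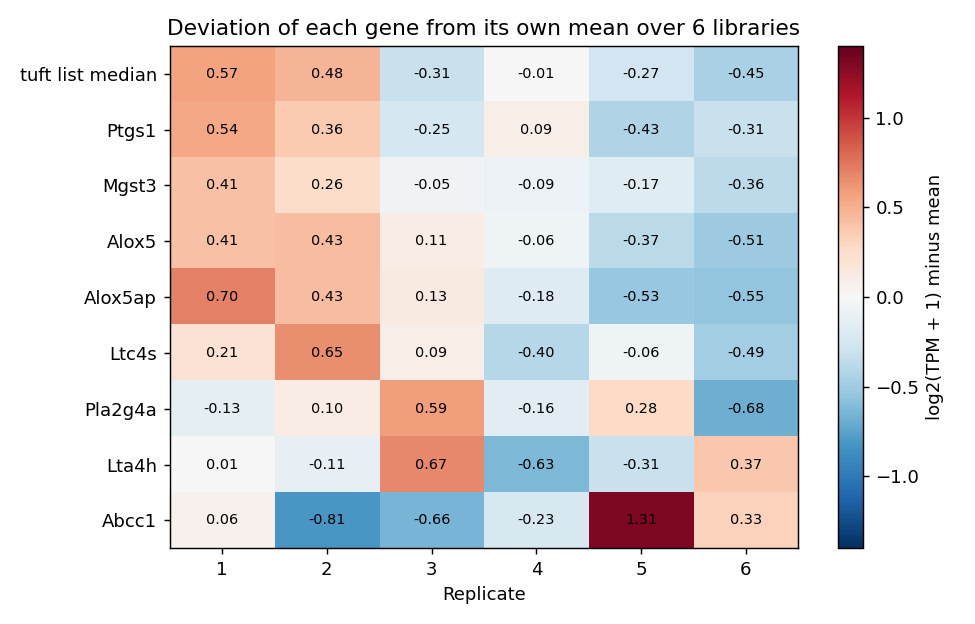
Each row gives a gene's log2(TPM + 1) in each of the 6 libraries minus its own mean, and the top row gives the median of 12 tuft markers. Ptgs1, Mgst3, Alox5, Alox5ap and Ltc4s are above their means in replicates 1 and 2, as the tuft list is. In replicate 3 the tuft list (-0.31), Ptgs1 (-0.25) and Mgst3 (-0.05) are below their means. Alox5 (0.11), Alox5ap (0.13) and Ltc4s (0.09) are above theirs there. Pla2g4a and Lta4h are highest in replicate 3 and Abcc1 in replicate 5.

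**Figure D4:**
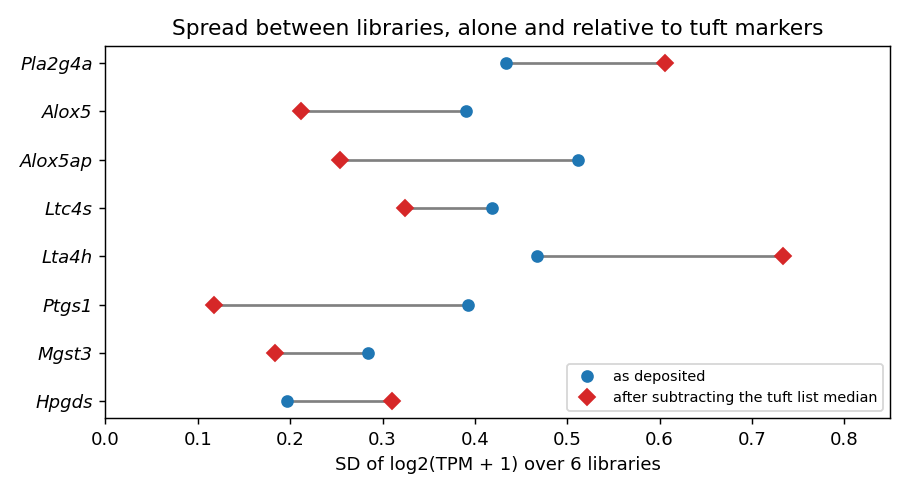
SD of log2(TPM + 1) over the 6 libraries for 8 genes, as deposited (circles) and after subtracting the tuft list median of each library (diamonds). The SD becomes smaller for Alox5, Alox5ap, Ltc4s, Ptgs1 and Mgst3 and larger for Pla2g4a, Lta4h and Hpgds.

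The libraries fall into 2 sets by the transcript Gm20594, which had 15588 to 21283 TPM in replicates 1 to 3 and 51804 to 56441 TPM in replicates 4 to 6. The labels name no such sets. Among the 5 members with a mean of at least 10 TPM, 3 had all of replicates 1 to 3 above all of 4 to 6, namely Alox5, Alox5ap and Ltc4s, against 16.8% of 6986 genes at that level. None was below in this way, against 2.93% of those genes. All 12 tuft markers overlapped between the sets. Markers of other cells moved with them: 3 of 7 Paneth genes, 3 of 7 goblet genes and 1 of 8 enterocyte genes had all of replicates 1 to 3 below all of 4 to 6, as did Gzma, Cxcr2, Csf3r and Igj, while Lyz2 and C1qc had them above. The Paneth list summed to 4149 to 7321 TPM in replicates 1 to 3 and to 8762 to 27518 TPM in replicates 4 to 6. The part of these cells in the split of Alox5, Alox5ap and Ltc4s was not tested. For Alox5 the mean was 321 ± 38.4 TPM in replicates 1 to 3 and 208 ± 33.7 TPM in replicates 4 to 6 (SD, n = 3 each). For Ltc4s the sets overlapped after either rescaling between libraries, so its separation depends on the scaling, while those of Alox5 and Alox5ap remained. Rn45s, the ribosomal RNA precursor, took 23.1% to 32.6% of TPM, which lowers all other values by a share that differs between libraries.

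Several of these genes are also known from leukocytes, in which 5-lipoxygenase was first studied, so leukocyte markers were measured beside them. Over 6 lists of immune cell markers, 44 genes were found. Of these, 14 were at 0 in all libraries, against 32.9% of all genes in the table, so the count of zeros is near that share. In every library 12 were above 0, against 47.2% of all genes. A mean of at least 10 TPM was reached by 4 (Kit, Cxcr2, Gzma and Gzmb), against 29.8% of all genes. The mast cell protease and receptor genes Mcpt4, Tpsb2 and Ms4a2 were at 0 in every library. Of the same list, Mcpt1 was at 0.67, 10.89, 10.88 and 2.39 TPM in replicates 2 to 5, and Cpa3 and Fcer1a were at 4.86 and 6.06 TPM in replicate 4 and at 0 in the others. Kit, the most abundant gene of the mast cell list, had 130 ± 22.1 TPM (SD, n = 6). It had 153 and 158 TPM in replicates 1 and 2 and 100 TPM in replicate 6, and so was highest and lowest in the same libraries as Alox5. Without Kit the list summed to 0.19 to 21.8 TPM, lowest in replicate 1 and highest in replicate 4. The eosinophil genes Epx and Prg2, with Mcpt8, Ear1 and Ear2, were at 0, and so were the neutrophil genes S100a8, S100a9, Elane and Mpo. The list of 7 eosinophil and basophil genes summed to 18.9 and 13.6 TPM in replicates 1 and 2, where Alox5 and Alox5ap were highest, and to 0.49 to 2.63 TPM in the others, and it was carried by Ccr3. Its part in the levels of these members was not tested. The list of 6 neutrophil genes summed to 8.42 to 25.7 TPM, led by Cxcr2, and that of 10 macrophage and dendritic genes to 3.33 to 25.1 TPM, led by Lyz2. The B and plasma cell list summed to 0 to 38.2 TPM, led by Igj, with Ms4a1 at 0. Alox5ap alone had 668.23 TPM or more in every library. T and intraepithelial lymphocyte genes, led by Gzma at 68.3 ± 63.6 TPM (SD, n = 6), summed to 24.8 TPM in replicate 1 and 215.8 TPM in replicate 6. This sum was lowest where Alox5ap was highest and highest where it was lowest. Without Gzma the sum was lowest in replicate 3, at 9.3 TPM, and highest in replicate 6, at 58.0 TPM. The part of leukocytes in the levels of the members was not tested.

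Markers of other epithelial cells were abundant, led by Defa24 (Paneth), Fabp1 (enterocyte), Zg16 (goblet) and Sct (enteroendocrine). Paneth cell genes summed to 4149 to 27518 TPM over 7 genes and enterocyte genes to 7700 to 16261 TPM over 8. Goblet cell genes summed to 1053 to 5118 TPM over 7 and enteroendocrine genes to 379 to 540 TPM over 9. The enteroendocrine sum was carried by Sct, and without Sct that list summed to 10.3 to 129.6 TPM. The goblet list was lowest in replicates 1 and 2 and highest in replicate 6, where Alox5 was lowest. The enterocyte sum was highest in replicates 1 and 2, but this was carried by Fabp1. Without Fabp1 the list summed to 2550 to 3467 TPM in replicates 1 to 3 and to 3573 to 5631 TPM in replicates 4 to 6, the opposite direction to Alox5. The part of these cells in the values of the members was not tested. Without non-tuft cells in the same data, the share of each member's transcripts that came from tuft cells was not measured.

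**Figure D5:**
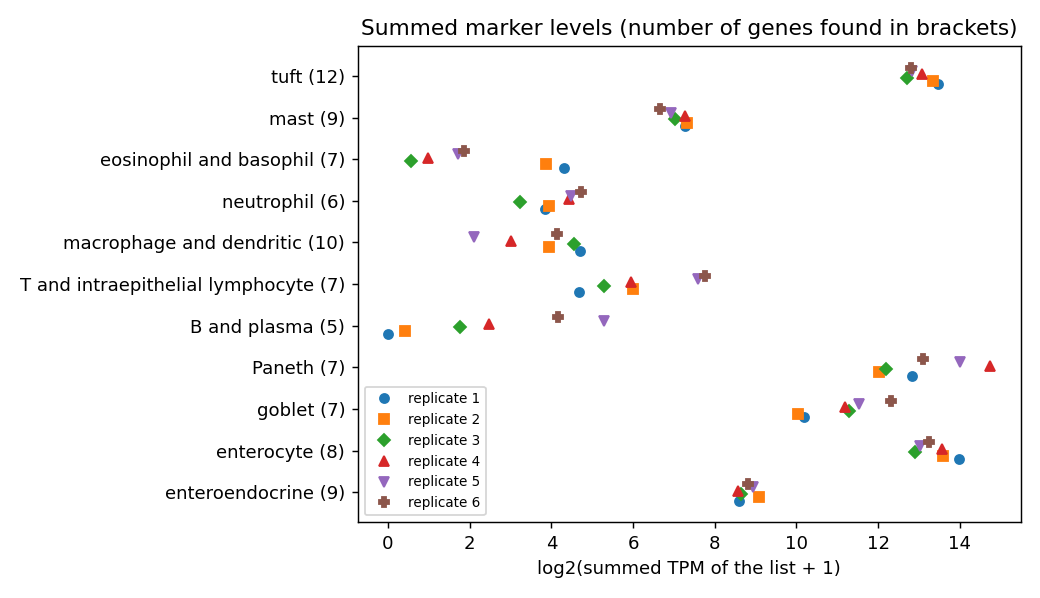
Summed TPM of each marker list as log2(sum + 1), with 1 point per library and the number of genes found in brackets. The tuft, Paneth, goblet and enterocyte lists lie above all immune lists, and the mast cell sum is carried by Kit.

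Positions are on GRCm38, the assembly also called mm10. By the coding transcripts of GENCODE M21, Alox5 lies at chr6:116410077-116461178, minus strand, and its longest coding transcript has 14 exons and 2821 nucleotides. Alox5ap lies at chr5:149264767-149288153, plus strand (5 exons, 1251 nucleotides), and Ltc4s at chr11:50236469-50238616, minus strand (5 exons, 716 nucleotides). Lta4h spans chr10:93453411-93484874, Pla2g4a chr1:149829618-149961290 and Abcc1 chr16:14361560-14475737. None of the 25-base runs of the Alox5, Alox15, Pla2g4a and Cysltr2 coding transcripts occurs in a transcript of another gene, so reads of these genes can be assigned. Exons of Ltc4s share 192 bases with Gm26542 and exons of Alox5ap share 189 bases with Gm19719, each on the opposite strand, which is 16.7% and 10.5% of their 25-base runs. For Lta4h 1.70% of the runs are shared with Gm4854. Neither of the antisense genes is a row of the table, and reads from them could not be told apart without strand.

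The sequences before the starts of Alox5 and Ltc4s, which were abundant and whose spread in the deposited values narrowed against the tuft markers, are shown with those of Pla2g4a and Lta4h, whose spread widened, and Alox12, which was near 0. They come from RefSeq on GRCm38.p6, 5′ to 3′ on the strand of the gene, and end before the annotated start in RefSeq and GENCODE. Entries matched for 6 of the 10 members, and Alox5ap, Abcc1, Alox15 and Cysltr1 are named only. Capitals mark matches on either strand to the GC box, spelled GGGCGG. In the sequence of Lta4h they mark the CCAAT box, whose letters are its name. The octamer motif ATGCAAAT was searched as well. So was the TATA box, spelled TATAAA, which 13.0% of promoters hold. The stretches are chr6:116461179-116461428 for Alox5, chr11:50238617-50238782 for Ltc4s, chr1:149961291-149961540 for Pla2g4a, chr10:93453146-93453395 for Lta4h and chr11:70255371-70255620 for Alox12, all on the minus strand but Lta4h.
Alox5: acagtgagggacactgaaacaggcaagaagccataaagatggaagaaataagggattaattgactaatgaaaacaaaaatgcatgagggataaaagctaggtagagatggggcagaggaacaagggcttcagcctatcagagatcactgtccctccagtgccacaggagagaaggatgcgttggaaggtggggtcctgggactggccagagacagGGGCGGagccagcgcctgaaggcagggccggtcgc
Ltc4s: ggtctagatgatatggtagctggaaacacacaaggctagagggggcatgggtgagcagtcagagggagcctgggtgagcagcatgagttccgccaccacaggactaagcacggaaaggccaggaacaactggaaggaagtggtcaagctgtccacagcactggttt
Pla2g4a: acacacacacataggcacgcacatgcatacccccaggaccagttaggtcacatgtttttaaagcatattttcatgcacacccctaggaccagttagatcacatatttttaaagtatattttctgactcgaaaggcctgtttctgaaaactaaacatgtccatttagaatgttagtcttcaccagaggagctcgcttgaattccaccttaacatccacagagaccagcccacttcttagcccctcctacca
Lta4h: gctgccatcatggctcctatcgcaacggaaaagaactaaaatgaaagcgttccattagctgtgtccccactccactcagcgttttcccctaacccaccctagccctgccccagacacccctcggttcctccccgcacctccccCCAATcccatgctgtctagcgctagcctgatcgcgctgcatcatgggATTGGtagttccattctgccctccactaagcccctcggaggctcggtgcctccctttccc
Alox12: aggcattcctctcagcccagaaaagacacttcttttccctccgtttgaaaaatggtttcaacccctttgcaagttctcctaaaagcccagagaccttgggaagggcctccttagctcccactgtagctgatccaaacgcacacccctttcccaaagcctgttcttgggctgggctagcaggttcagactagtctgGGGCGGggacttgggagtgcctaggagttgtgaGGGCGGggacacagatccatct

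Alox5 held 1 GC box and Alox12 held 2 in the 250 bases before the start, a motif that 32.9% of 27025 RefSeq promoters hold in a window of this length. Lta4h and Cysltr2 each held 2 CCAAT boxes, which 34.5% of promoters hold. None of the 4 motifs was in the 250-base windows of Ltc4s, of which 166 bases are shown, and Pla2g4a, and the octamer, found in 1.61% of promoters, was in none of the 6 member promoters searched. The GC box thus occurred before both Alox5, the most abundant lipoxygenase gene of the table, and Alox12, and a match in these letters is a description, not a binding site.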

How the data were processed

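RNA of sorted ileal tuft cells was sequenced in 6 libraries of 1 group. Full-length SMART-Seq2 libraries, read from both ends, are described in the methods, and the labels list a 3' polyA and a droplet preparation besides. Bowtie alignments to mm10 transcripts from UCSC were turned into TPM by RSEM, and the authors deposited these TPM values. RSEM divides reads shared between transcripts by estimated shares. Whether strand was used is not given in the sources used here. In the submitters' processing notes TopHat and a count tool are named as well, and no count model was run here. TPM keeps no depth, so library depth is unknown and no counting interval was computed. The number of genes listed above 0 was 13044 to 13308 per library.

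Columns were matched to replicates by number. The labels number the libraries as mouse replicates and the study calls its samples independent. The p-values concern differences between genes over these libraries. The smallest possible p depends on all differences sharing a direction, whatever their spread. Values were compared within a library as log2(TPM + 1), a scale that compresses differences of low genes, by an exact permutation test (two-sided) that flips signs in all 64 ways, with Benjamini-Hochberg adjustment over 9 comparisons and, separately, over 9 pairs of neighbours. The members, lists and tests were chosen with earlier results of these data known. The genes named are all members, every gene of the pathway list averaging 10 TPM or more, the most abundant gene of each marker list and its genes at 0 where 6 or fewer, and the 2 genes of most similar profile for each abundant member. Some genes that this rule names are not reported here. Genes below that mean, such as the leukotriene receptors, Alox8, Alox12b, Alox12e, Aloxe3, Ptges, Ggt5, Ggt7 and Dpep3, and the markers Mcpt1, Cpa3, Fcer1a, Csf3r and C1qc, were named after their values were seen. So was Gzmb, which averaged 13.9 TPM but was not the most abundant gene of its list. Sh2d6 and Ly6g were not found in the table, and Adgre1 and Jchain were found as Emr1 and Igj. Scripts were tested on simulated data. Computation ran in Python 3.11.15 with scipy 1.17.1, pandas 2.3.3 and numpy 2.4.6, and matplotlib 3.10.9 drew the figures. The alternatives were pseudocounts of 0.1 and 0.01, setting values under 0.1 TPM to 0, an exact Mann-Whitney test over 924 assignments, median-of-ratios rescaling, rescaling without Rn45s and Gm20594, leaving out each library, TPM multiplied by the longest GENCODE M21 coding transcript (chosen after the data were seen), and each set of 3 libraries alone. The measurements of the paper other than RNA-sequencing were not analysed here.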

Additional observations from a re-analysis of the deposited data

Results flagged for a closer look

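Of 38 genes screened, the 10 members and the other pathway genes averaging 10 TPM or more, 3 had 1 library far from the rest by Dixon's ratio, which divides the gap at one end by the range and was set against its critical value for 6 libraries. Chance alone places about 1 in 20 groups there, or 1.75 of the 35 that were not 0 throughout, while 7.01% of all genes averaging 10 TPM or more and 20.7% of genes above 0 in any library were placed there in these data. Abcc1 was at 17.87 TPM in replicate 5 and at 3.35 to 8.57 TPM in the others (ratio 0.640), and on the log2(TPM + 1) scale the ratio was 0.463, below the critical value. Alox12 was at 1.42 TPM in replicate 3 and at 0 to 0.29 TPM in the others (ratio 0.796, and 0.712 on the log2 scale). Ggt6, a gamma-glutamyltransferase gene, was at 21.42 TPM in replicate 6 and at 5.78 to 9.76 TPM in the others (ratio 0.746), and on the log2 scale the ratio was 0.614, also below the critical value. Without the library that stood apart, the means were 5.64 TPM for Abcc1, 0.12 TPM for Alox12 and 8.31 TPM for Ggt6. Their causes were not tested.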

How the results depend on the processing

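The comparison of Cysltr1 with Cysltr2 stayed at 0 throughout. The other 8 comparisons kept their direction and their side of the adjusted threshold of 0.05 under both other pseudocounts, the filter at 0.1 TPM, both rescalings and the exact Mann-Whitney test. A pseudocount or a scaling factor treats the genes of a library alike and cannot change which is higher. For Ltc4s against Mgst3 and Abcc1 against Abcc3, the second gene was taken for its abundance in these values. Their side of the threshold is therefore only a description. For Alox5 against Alox15, the direction and p were fixed by Alox15 being at 0 in all libraries. Multiplying TPM by transcript length, an alternative chosen after the data were seen, kept the mean direction but left no comparison past the adjusted threshold. The differences were 8.77 (Alox5 against Alox12), 9.50 (Alox15) and 0.76 (Alox5ap against Alox5), each in 6 of 6 libraries (exact permutation p = 0.03125, adjusted p = 0.0563). They were 0.82 (Ltc4s against Lta4h) and 0.46 (Pla2g4a), each in 5 of 6 (exact permutation p = 0.0625, adjusted p = 0.0703). As a description, they were -2.98 (Ltc4s against Mgst3) and -3.08 (Abcc1 against Abcc3), each in 6 of 6. With fewer comparisons at the smallest p, the adjustment raises all of them. Within replicates 1 to 3 and 4 to 6 taken alone, values with no test, the direction of these 8 was kept as well. With each library left out in turn, a value without a test since 5 libraries cannot reach p below 0.0625, the log2 differences lay between 7.53 and 7.83 (Alox5 against Alox12), 7.92 and 8.11 (Alox15), 1.87 and 1.96 (Alox5ap against Alox5), 2.16 and 2.49 (Ltc4s against Lta4h), 0.63 and 0.86 (Pla2g4a), -2.45 and -2.31 (Ltc4s against Mgst3), -3.69 and -3.16 (Abcc1) and -0.31 and -0.19 (Alox5 against Ptgs1), and the count of members above 0 in every library stayed at 6. The mean of Alox12 lay between 0.12 TPM without replicate 3 and 0.404 TPM. Rescaling without Rn45s and Gm20594, which multiplies values by 1.33 to 1.61, raised 5 of 10 member means by more than 1 SD. The alternatives for the order of neighbours were chosen after the data were seen. Genes were paired within a library by the main test. Pairing samples across groups does not apply, since the libraries form 1 group. With depth unknown, no detection limit can be given for values of 0.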

Other observations

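The genes most like each member over the 6 libraries, by the smallest root mean square distance between profiles of log2(TPM + 1) centred on each gene's mean, were sought among 6986 genes averaging 10 TPM or more. They were Ergic3 (0.032) and Tmbim6 (0.053) for Alox5, Cd63 (0.046) and Myadm (0.080) for Alox5ap, and Ypel3 (0.027) and Plin2 (0.095) for Ltc4s. For Pla2g4a they were Aktip (0.090) and Eif3b (0.092), and for Lta4h they were Ndufs3 (0.076) and Cdv3 (0.114). No gene was named for more than 1 member. With 6 libraries and this many genes, some profiles lie close to any given gene, so these names are a description.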
